A study of Mus musculus with 6 samples.

Results

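The replication-dependent histone genes are the genes of the Hist1, Hist2, Hist3 and Hist4 clusters, which encode the core histones H2A, H2B, H3 and H4 and the linker histone H1. Their members were taken as the gene names on the array that begin with one of these cluster names, and each gene was represented by the probe with the highest mean log2 signal over all arrays. This gave 49 genes, carried by 55 probes, of 34797 gene names on the array. There were 6 H1, 14 H2A, 12 H2B, 8 H3 and 9 H4 genes, and 2 of the names, Hist3h2bb-ps and Hist2h3c2-ps, are pseudogenes. The rule itself uses names and mean signal, and no difference between the groups.

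Satellite cells, from which adult muscle regenerates, had been sorted from C57BL6 animals with a knockout of Rpt3 (gene Psmc4) limited to satellite cells, and from control animals. Rpt3 is an ATPase of the particle that feeds ubiquitin-tagged proteins into the proteasome. RNA of 3 knockout and 3 control mice was amplified over the whole transcriptome and hybridized with Cy3 label to 1 Agilent array per mouse. The labels give neither the driver of the knockout, the genotype of the controls, the age of the animals nor the part of the gene that was deleted.

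Histones package DNA into nucleosomes, and a cell that copies its genome has to make a matching amount of new histone. Replication-dependent histone genes meet this demand in S phase. They have no introns, lie in clusters in many near-identical copies, and most of their mRNAs end in a short stem-loop instead of a poly(A) tail. The stem-loop is bound by SLBP, which is needed to cut the 3′ end, to translate the mRNA and to destroy it when replication stops. Variant histones such as H2A.Z and H3.3 come from ordinary polyadenylated mRNAs and are made throughout the cell cycle.

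All values below are normalized log2 signals, that is the scanner's processed signal on a log2 scale, set to 0 at the upper quartile (75th percentile) of each array. A gene was tested if, in the knockout group or in the control group, its probe was well above background on each of the 3 arrays. Of the 49 histone genes, 28 were tested, 21 were not, and 13 of those 21 never stood well above background. On the whole array 19199 features were tested, with a median log2 difference of 0.04, and 44.2% to 57.9% of probes per array were well above background. Knockout 3 had the smallest share and was the lowest of the 6 arrays for 26.3% of features and the highest for 27.8%. Knockout 1 and 2 lay in slide row 1, and knockout 3 with all controls lay in slide row 2. Psmc4, the gene targeted, read 2.05, 2.07 and 1.54 on the knockout arrays against 2.93, 2.61 and 2.87 on the controls, a difference of -0.92 (limma, adjusted p = 0.421). Its probe checks the deletion only if it lies in the deleted part. All 10 satellite cell markers were tested, 6 higher and 4 lower in the knockout, and 3 of the lower ones had an unadjusted p under 0.05, none an adjusted one (limma). Of all features, 4.21% were lower at that unadjusted threshold. Among the 4 lower markers, Myf5 and Itga7 were tested only through the control arrays, the group where they are higher. Myod1 and Vcam1 were well above background on all arrays of both groups. Pax7 was so on 2 knockout and 3 control arrays. The 3 with an unadjusted p under 0.05 were Myf5, Calcr and Cxcr4. Myf5 was well above background on 0 knockout and 3 control arrays and so at least 2.23-fold lower in the knockout (limma adjusted p = 0.188), a bound against the lowest signals well above background. Calcr differed by -1.04 (SE 0.28, adjusted p = 0.441) and Cxcr4 by -0.64 (SE 0.24, adjusted p = 0.615).

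Across the 28 tested histone genes the knockout and control levels lay close together, with H4 as the type whose means were highest in the knockout relative to the controls. The median log2 difference, knockout minus control, was 0.00 for 3 H1 genes, -0.05 for 11 H2A genes, -0.28 for 5 H2B genes, -0.04 for 4 H3 genes and 0.49 for 5 H4 genes. Over all 28 it was -0.02, with 12 genes higher and 16 lower. Of all features tested, 43.7% had a lower mean in the knockout. No histone gene passed an adjusted p of 0.05 (limma over 19199 features, smallest 0.556), and the percentage of all features that did was 0, with 1352 features at an unadjusted p under 0.05. At that unadjusted threshold stood 2 histone genes, Hist1h4k and Hist1h4h, both higher in the knockout, and 0 lower ones. Of all features, 7.04% passed it, 2.83% higher and 4.21% lower. The same 2 genes were the ones whose groups did not overlap, against 5.08% of all features without overlap and higher in the knockout and 5.61% lower. Hist1h4h was tested only through the knockout arrays, where it is higher, as 1 control array was well above background. With a filter on all 6 arrays it was not tested, and the unadjusted count was 1. None of the 28 differed by more than 2-fold (0 higher, 0 lower), against 1.43% of all features higher and 2.35% lower. With 3 arrays against 3, an exact permutation test cannot give a p below 0.1. In amplified RNA of sorted cells, fewer cells in S phase and less histone mRNA per cell cannot be told apart.

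**Figure D1:**
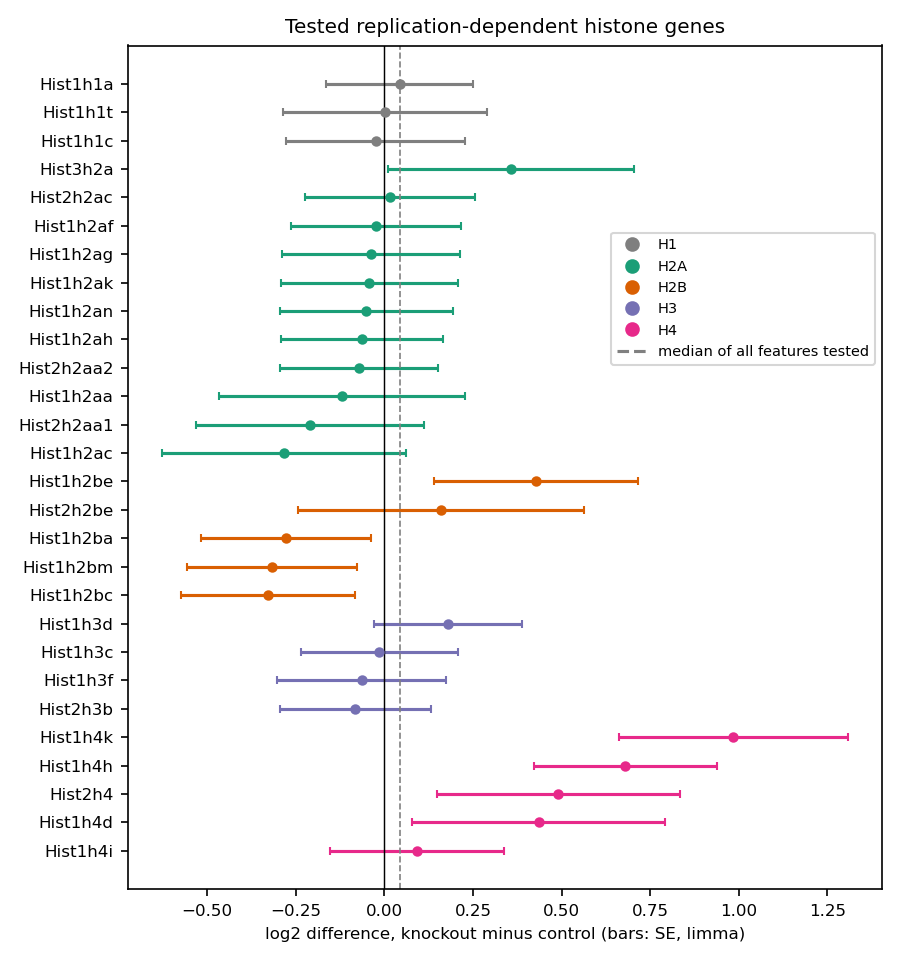
Log2 difference of each of the 28 tested histone genes, knockout minus control (x axis), grouped by type; points are the fitted differences of 3 arrays against 3, bars their standard errors, and the dashed line the median of all features tested. All 5 H4 points lie to the right of 0 (Hist1h4i moves to -0.01 under quantile normalization and -0.11 without knockout 3, Hist1h4d to -0.07 with slide row as a block), Hist1h4k farthest at 0.98, while the other types spread between -0.33 and 0.43.

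The probes show what these measurements can and cannot separate. Copies of 1 histone type code for nearly the same protein, and 13 of the 49 probes matched the probe of another gene name over 40 or more of their 60 bases, namely those of 7 H2A, 3 H3 and 3 H4 genes. The H2A probes below all end on the stop codon of an open reading frame. Capitals mark bases that differ from the Hist1h2ah probe within the stretch that aligns with it; bases beyond that stretch stay in lower case.
Hist1h2ah: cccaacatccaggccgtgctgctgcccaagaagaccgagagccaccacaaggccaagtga
Hist1h2af: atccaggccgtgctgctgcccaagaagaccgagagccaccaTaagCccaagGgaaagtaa
Hist1h2ak: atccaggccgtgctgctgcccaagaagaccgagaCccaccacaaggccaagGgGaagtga
Hist1h2an: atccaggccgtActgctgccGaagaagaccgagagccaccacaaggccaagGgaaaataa
Hist2h2aa2: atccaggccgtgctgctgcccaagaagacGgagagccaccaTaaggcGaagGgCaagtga
Over 54 aligned bases the probes of Hist1h2af, Hist1h2ak and Hist1h2an differ from it at 3 positions each, and that of Hist2h2aa2 at 5. The Hist1h2ah and Hist2h2aa2 probes also match the probe of H2afj, a variant histone gene, over 40 or more bases. Signals of such probes are not independent.

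The same holds for part of the H4 genes. The array carries 2 probes for Hist1h4k. The brighter one covers the end of the coding sequence, with the stop codon in capitals here, and matched no other gene's probe over 40 bases. Probes were compared only with other probes of the array. Whether other H4 mRNAs hold this stretch was not tested.
Hist1h4k: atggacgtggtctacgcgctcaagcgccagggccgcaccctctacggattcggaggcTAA
The second Hist1h4k probe lies further inside the coding sequence, where the probes of Hist1h4c, Hist1h4d and Hist1h4j lie too. Capitals again mark the bases that differ, here from that second probe.
Hist1h4k, second probe: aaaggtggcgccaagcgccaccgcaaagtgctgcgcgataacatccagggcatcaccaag
Hist1h4c: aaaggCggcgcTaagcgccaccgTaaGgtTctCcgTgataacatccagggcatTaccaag
Hist1h4d: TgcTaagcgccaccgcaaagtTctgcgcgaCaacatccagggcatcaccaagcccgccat
Hist1h4j: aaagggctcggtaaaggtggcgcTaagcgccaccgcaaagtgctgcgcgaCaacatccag
Hist1h4c differs at 8 of 60 aligned positions, Hist1h4d at 4 of 52 and Hist1h4j at 2 of 48.

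Another set of probes reaches the stem-loop. The 3′ stem-loop, found as a perfect inverted repeat of 6 bases beginning with GG around a loop of 4 pyrimidines, stands whole in 6 histone probes, and in 11 of 55681 probes of the array (0.0198%). It is printed in capitals with up to 6 bases on each side.
Hist1h3a: accaaaGGCTCTTTTCAGAGCCaca
Hist1h3g: tttaaaGGCTCTTCTTAGAGCCaccca
Hist1h3i: acaaaaGGCTCTTTTCAGAGCCccctc
Hist1h4m: actaaaGGCCCTTTTCAGGGCCatccaa
Hist2h2bb: ccaaaaGGCTCTTTTCAGAGCCacttta
Hist2h2aa1: taaaaaGGCTCTTTTCAGAGCCacccac
The stem is the same in 5 of them and differs in Hist1h4m, where both of its arms are changed so that they still pair. Of these 6 genes, 4 (Hist1h3a, Hist1h3g, Hist1h4m and Hist2h2bb) never stood well above background, Hist1h3i was so on 1 control array, and 1, Hist2h2aa1, was tested. The Hist2h2aa1 probe goes on for 38 bases past the stem-loop, the other probes for 3 to 6. Whether its signal comes from mRNAs that end at the stem-loop was not tested.

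Detection differed between the kinds of probe. Of the 8 genes whose probes end on a stop codon, 7 were tested and 0 were never above background. Of the 13 with a 40-base match to another gene, 11 were tested and 0 were never above background, and of the other 36, 17 were tested and 13 were never above background. The base composition moved with this: the median GC content was 55% in probes of tested genes, with a range of 35% to 70%, and 41.7% in those of the others, with a range of 23.3% to 60%. Its part in detection was not tested. The 13 genes never above background were Hist1h1d among the H1 genes, Hist1h2ab, Hist1h2ae and Hist2h2ab among the H2A genes, Hist1h2bg, Hist1h2bp, Hist2h2bb, Hist3h2ba and Hist3h2bb-ps among the H2B genes, Hist1h3a, Hist1h3g and Hist2h3c2-ps among the H3 genes, and Hist1h4m. How the amplification was primed is not given in the sources used here.

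H4 is the most conserved of the core histones and forms the centre of the nucleosome with H3. Hist1h4k, on chromosome 13 (probe at chr13:21842063-21842122, minus strand, build mm9, transcript NM_178211, current name H4c12), had the largest difference among the tested histone genes. On the knockout arrays 1, 2 and 3 it read 0.08, 1.28 and 0.53, while the control arrays 1, 2 and 3 read -0.16, -0.43 and -0.48. All knockout arrays were above all control arrays, and knockout 2 was the highest. Knockout cells averaged 0.63 ± 0.61 (SD, n = 3), and the average of control cells was -0.36 ± 0.17 (SD, n = 3). Their difference of 0.98 (SE 0.32) is 1.98-fold, with an unadjusted p of 0.0165 and an adjusted p of 0.556 (limma), and an exact permutation p of 0.1, the smallest possible. It was 0.60 with normexp background correction. The second Hist1h4k probe, dimmer and in the stretch shared with other H4 probes, was also higher in 3 of 3 knockout arrays: it read -2.0, -1.12 and -1.80 against -2.97, -2.61 and -2.37. This second probe was well above background on 3 knockout and 2 control arrays, so it passed the filter only through the group where it is higher. Its difference was 1.01 (SE 0.30, adjusted p = 0.471, limma over all tested probes). Higher without overlap were 5.08% of all features.

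Hist1h4h (chr13:23622937-23622996, plus strand, mm9, current name H4c8) was the other gene without overlap, at a far dimmer level. It read -1.63, -1.96 and -1.38 on knockout arrays 1 to 3 against -2.55, -1.99 and -2.47 on control arrays 1 to 3. The probe was well above background on 3 knockout arrays and 1 control array, so the control levels are near the limit of measurement. The log2 difference was 0.68 (SE 0.26, limma unadjusted p = 0.0302, adjusted p = 0.627), and 0.18 with normexp background correction. Knockout 2 exceeded control 2 by a small margin only, and here, unlike in Hist1h4k, knockout 3 was the highest array.

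Of the other tested H4 genes, Hist2h4 read -0.03, 1.19 and 0.11 in the knockouts and -0.20, -0.13 and 0.12 in the controls. Its difference of 0.49 (SE 0.34, adjusted p = 0.925) came with knockout 2 alone above the controls, and its second probe gave 0.00. Hist1h4d, which shares the inner coding stretch, read -0.78, 0.18 and -1.05 against -0.60, -1.15 and -1.21, a difference of 0.44 (SE 0.36, adjusted p = 0.958). Again knockout 2 was the highest and the groups overlapped. Leaving out knockout 2, the differences were 0.11 for Hist2h4, 0.07 for Hist1h4d and 0.66 for Hist1h4k, and the H4 median was 0.13. Within slide row 2, where knockout 3 alone meets the controls, they were 0.18, -0.07 and 0.88.

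Hist1h4i was the brightest histone gene by its brightest probe and the one whose probes disagreed most. That probe read 8.76, 9.02 and 9.5 in the knockouts and 9.02, 9.01 and 8.97 in the controls, with a difference of 0.09 (SE 0.25). This difference was -0.01 under quantile normalization and in the deposited value table, so that 4 of 5 tested H4 genes were then higher, and -0.11 without knockout 3. Its processed signal of 40050 to 46490 on the 6 arrays stood against 23.5 to 53.2 for the second probe and 4.37 to 22.2 for the third. The second probe gave a difference of 0.40 (SE 0.32). What the brightest probe binds was not established here, and signals of different probes are not levels of mRNA that can be ranked.

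The 4 H4 genes that were not tested were at or near background. Their means were higher in the knockout, as were those of 15 of the 17 untested genes of the other types, so this direction is not particular to H4. The lowest log2 signal well above background was -2.44 on knockout 3 and -3.10 to -2.71 on the other arrays. Hist1h4c, with 1 knockout and 0 control arrays well above background, read -3.69, -1.57 and -2.65 against -4.75, -4.74 and -4.65. The control values are at the floor of the array. Knockout 1 and 3 also lay below the lowest signal well above background on their arrays. With knockout 2 alone above background, no size is given for the difference. Hist1h4j read -2.64, -3.37 and -3.28 against -3.31, -4.85 and -4.80. Hist4h4, the single gene of the fourth cluster, on chromosome 6, read -2.36, -1.73 and -2.26 against -2.42, -4.19 and -3.34, with 2 knockout arrays and 1 control array above background. Hist1h4m, whose probe holds the stem-loop, was above background nowhere. The probes of Hist1h4c, Hist1h4j and Hist1h4d overlap in sequence, so the 9 H4 genes are fewer than 9 separate measurements.

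**Figure D2:**
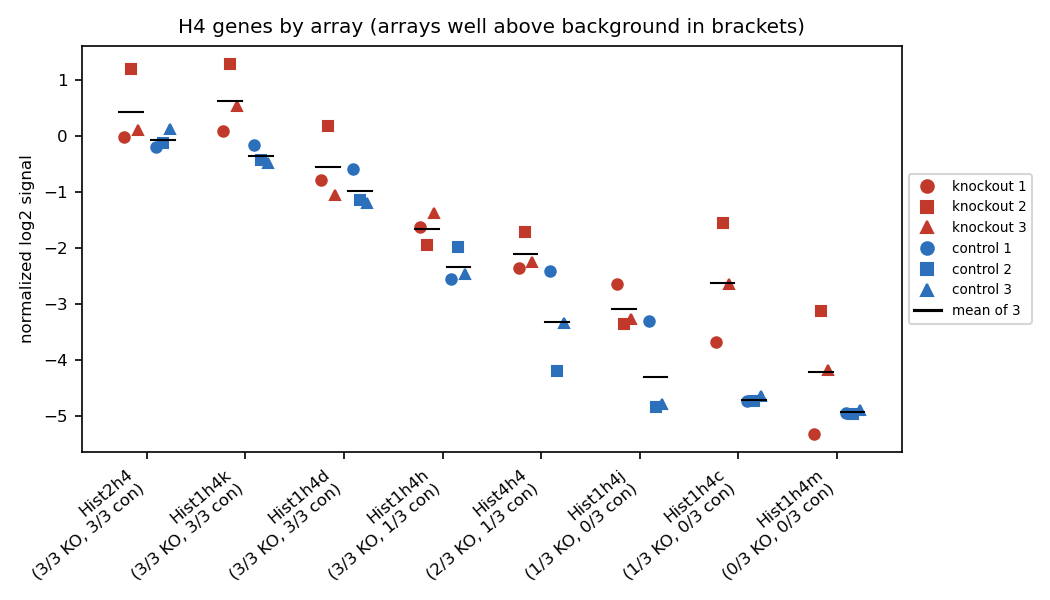
Normalized log2 signal (y axis) of 8 H4 genes on each array, without Hist1h4i, whose probe is far brighter; red symbols are knockout and blue symbols control arrays 1 to 3, and black bars the means of 3. Knockout 2 is the highest array in the tested genes Hist2h4, Hist1h4k and Hist1h4d. It is also the highest in Hist1h4c, Hist4h4 and Hist1h4m, which were not tested and are at or near background. The groups of the tested genes are apart in Hist1h4k and Hist1h4h, against 5.08% of all features apart and higher in the knockout.

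Markers of blood cells had higher levels on some knockout arrays, and 0 of them passed the adjusted threshold (limma). At an unadjusted p under 0.05 stood 2 red blood cell and 0 neutrophil markers, against 2.83% of all features higher. Of 8 red blood cell markers 3 were tested, with mean levels of 0.81, 0.65 and 0.34 in the knockouts and -0.25, -0.89 and -1.67 in the controls. Among them Hba-a1, an alpha-globin gene, differed by 1.88 (SE 0.44, limma adjusted p = 0.364). Slc4a1, the anion exchanger of the red cell membrane, differed by 0.00 (SE 0.62). Hbb-b1, a beta-globin gene that was well above background on 1 control array, differed by 2.73 (SE 0.88). That size rests on background values, as Hbb-b1 read -4.64 and -4.57 on control 2 and 3. Alas2, which makes haem in red cell precursors, was well above background on 1 knockout and 0 control arrays. Ahsp and Klf1, which mark red cell precursors, never stood well above background. Of 8 neutrophil markers 4 were tested, with means of 1.33, 1.83 and -1.16 in the knockouts and -0.10, -0.29 and -0.69 in the controls, so that knockout 3 lay below all controls. Knockout 2, the highest array of 3 tested H4 genes, was also the highest for the neutrophil markers, and knockout 1 was for those of red cells. This place of knockout 2 is not particular to blood cell markers. The 3 tested myofibre markers were highest there too, with means of 1.34, 1.98 and 0.27 against 1.36, 0.98 and 1.04. The part of these cells in the H4 values was not tested.

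H2A forms dimers with H2B on the outside of the nucleosome. The 11 tested H2A genes lay between -0.28 and 0.36 in their log2 difference, 2 higher and 9 lower, and none had separated groups. Hist1h2ah (chr13:22127035-22127094, mm9), the brightest of them, read 3.46, 3.41 and 2.92 on knockout arrays 1 to 3 against 3.43, 3.30 and 3.25 on control arrays 1 to 3. Knockout 1 and 2 lay among the controls or above them and knockout 3 below all. Hist2h2aa2, at 3.16, 3.19 and 2.72 against 3.21, 3.09 and 2.99, also had knockout 3 below all other arrays. Their differences were -0.06 (SE 0.23) and -0.07 (SE 0.22), with adjusted p of 0.984 and 0.982 (limma). Knockout 3 was the lowest of all arrays for 9 of the 11 tested H2A genes, against 26.3% of all features. With knockout 3 left out, Hist1h2ah was at 0.11 and Hist2h2aa2 at 0.08. The H2A median without it was 0.16, and with slide row as a block, which leaves knockout 3 against the controls, it was -0.40.

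**Figure D3:**
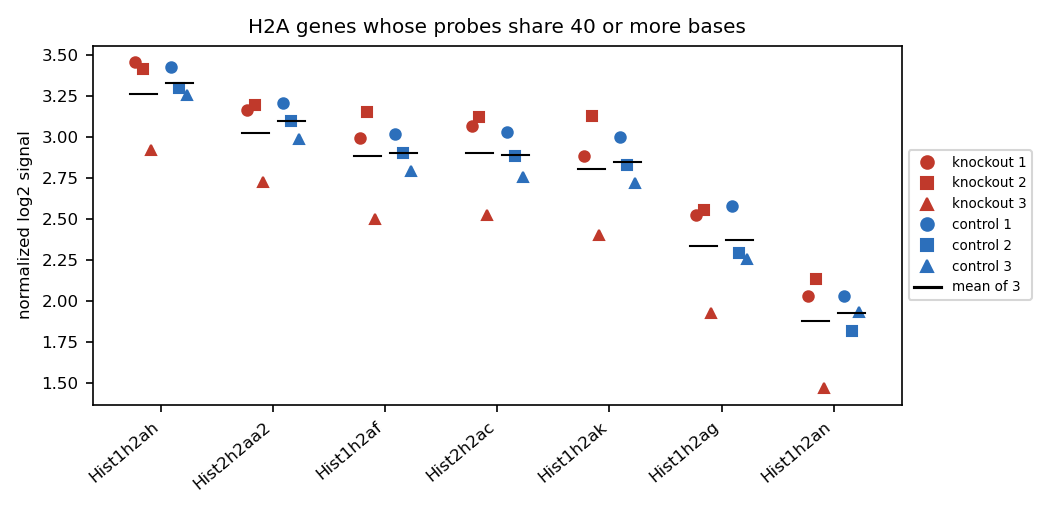
Normalized log2 signal (y axis) of the 7 H2A genes whose probes share 40 or more bases, on each array; red symbols are knockout and blue symbols control arrays 1 to 3, and black bars the means of 3. Knockout 3 is the lowest symbol of each of these 7 genes, and knockout 1 and 2 lie among or above the controls.

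The H2A genes outside this set varied more. Hist1h2ac read -0.59, 0.08 and 0.46 against 0.08, -0.04 and 0.77, a difference of -0.28 (SE 0.34, adjusted p = 0.981), with knockout 1 the lowest array. It was 0.00 without knockout 1 and 0.19 with slide row as a block. Hist3h2a, of the small Hist3 cluster on chromosome 11, read 0.51, 0.64 and -0.24 against 0.47, -0.06 and -0.56, a difference of 0.36 (SE 0.35, adjusted p = 0.975). With the block it was -0.19. The other Hist3 genes, Hist3h2ba and Hist3h2bb-ps, were not above background on any array. Hist2h2aa1, the stem-loop probe that was tested, read 0.77, 0.86 and 0.22 against 1.17, 1.09 and 0.23, a difference of -0.21 (SE 0.32). Hist1h2ak has a second probe, for which the difference was -0.36 (SE 0.21) where the brighter, shared one gave -0.04 (SE 0.25). That second probe read 0.60, 0.54 and 0.70 in the knockouts and 1.14, 0.78 and 0.99 in the controls, without overlap. Lower without overlap were 5.61% of all features, and this probe had an adjusted p of 0.849 (limma over all tested probes).

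Of 12 H2B genes 5 were tested, 2 higher and 3 lower in the knockout. Hist1h2bc had the smallest p among the lower ones and read 1.06, 1.51 and 0.92 in the knockouts and 1.32, 1.74 and 1.42 in the controls. Its difference was -0.33 (SE 0.25, adjusted p = 0.942), and knockout 2 lay inside the range of the controls. Hist1h2bm, at 1.47, 1.70 and 1.0 against 1.66, 1.73 and 1.73, differed by -0.32 (SE 0.24, adjusted p = 0.945), and knockout 3 was its lowest array. With slide row as a block it was -0.70. Hist1h2ba, known as the testis-specific H2B gene, was well above background on all arrays, at 1.35, 1.67 and 1.19 against 1.53, 1.98 and 1.54, a difference of -0.28 (SE 0.24). Hist1h2be went the other way, with -0.64, -0.19 and -0.71 against -1.38, -0.50 and -0.96, a difference of 0.43 (SE 0.29, adjusted p = 0.917). Its groups overlapped too. Hist2h2be differed by 0.16 (SE 0.40).

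H3 carries most of the marked lysines by which chromatin states are read. The 4 tested H3 genes lay between -0.08 and 0.18. Hist1h3d, the brightest histone gene after Hist1h4i (chr13:23667979-23668038, plus strand, mm9), read 5.37, 5.44 and 5.06 in the knockouts and 5.14, 5.13 and 5.06 in the controls. Its difference was 0.18 (SE 0.21, adjusted p = 0.981), and knockout 3 lay just below the lowest control, so that the slide row block gave -0.05. Hist2h3b read -0.53, -0.48 and -0.60 against -0.49, -0.66 and -0.21, a difference of -0.08 (SE 0.21). Hist1h3c, at 1.55, 1.77 and 1.30 against 1.40, 1.65 and 1.62, and Hist1h3f, at -0.95, -0.34 and -0.67 against -0.78, -0.44 and -0.54, differed by -0.01 (SE 0.22) and -0.06 (SE 0.24).

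H1 binds the linker DNA between nucleosomes. Hist1h1c was the brightest H1 gene (chr13:23832018-23832077, plus strand, mm9, current name H1f2). It read 3.48, 3.42 and 2.76 in the knockouts and 3.28, 3.21 and 3.24 in the controls, a difference of -0.02 (SE 0.25, adjusted p = 0.993). Knockout 1 and 2 lay above the narrow range of the controls and knockout 3 below it, so that the slide row block, which rests on knockout 3, gave -0.49. Hist1h1a differed by 0.04 (SE 0.21) and Hist1h1t, the testis-specific H1 gene, by 0.00 (SE 0.29), at -0.95, -0.92 and -0.10 against -0.80, -0.73 and -0.44. Here knockout 3 was the highest array, and the block gave 0.56. Hist1h1b, Hist1h1d and Hist1h1e were not tested.

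By cluster, the medians were -0.02 over 21 tested genes of Hist1 on chromosome 13, -0.03 over 6 genes of Hist2 on chromosome 3, and 0.36 for the single tested gene of Hist3. Some histone genes are known to make polyadenylated mRNAs as well. The 6 of them listed here (Hist1h1c, Hist1h2bc, Hist2h2be, Hist2h2aa1, Hist2h2aa2 and Hist3h2a) were all tested and had a median difference of -0.05. The 3 testis histones Hist1h1t, Hist1h2aa and Hist1h2ba had one of -0.12. The array annotation places the Hist2h2aa1 and Hist2h2aa2 probes close together on the plus strand (chr3:96049949-96050008 and chr3:96049837-96049896, mm9). They may therefore not be separate measurements, here or among the tested H2A genes.

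The genes that make and use histone mRNA were compared from lists. Of 18 genes of histone mRNA processing 12 were tested, 8 higher and 4 lower, with a median of 0.13, and 0 passed the adjusted threshold (limma). At an unadjusted p under 0.05 stood 1 higher and 1 lower gene, against 2.83% and 4.21% of all features. The lower one was Slbp, the stem-loop binding protein. Its brighter probe read 3.20, 2.81 and 3.34 on knockout arrays 1 to 3 against 3.77, 3.89 and 4.16 on control arrays 1 to 3. All knockout arrays lay below all controls, as in 5.61% of all features tested. The difference was -0.82 (SE 0.24, unadjusted p = 0.00862, adjusted p = 0.481). The second Slbp probe did not show it: it read -0.55, -0.47 and -0.83 against -1.32, -0.29 and -0.75, a difference of 0.17 (SE 0.30), and the mean of both probes gave -0.33 (adjusted p = 0.898). Where in the mRNA each probe lies was not analysed here.

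The higher one was Coil, which encodes the coilin of Cajal bodies, at -0.73, -0.67 and -1.07 against -1.80, -1.12 and -2.67. Its groups did not overlap, against 5.08% of all features without overlap and higher in the knockout. The difference was 1.04 (SE 0.38, limma adjusted p = 0.615). Coil was well above background on 3 knockout and 2 control arrays, so it was tested only through the group where it is higher. Srrt, whose product links cap binding to RNA processing, differed by 0.60 (SE 0.29) and Cstf2, a cleavage factor, by 0.37 (SE 0.30). Npat, the activator of histone transcription in S phase, was well above background on 1 knockout and 0 control arrays and was not tested. Lsm10 and Lsm11, subunits of the particle that cuts histone mRNA, were not above background on any array.

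Of 26 genes of S phase listed, 20 were tested, 6 higher and 14 lower, with a median of -0.39. At an unadjusted p under 0.05 stood 6 lower and 0 higher ones, against 4.21% of all features lower, and 0 passed the adjusted threshold (limma). Of these lower genes, Mcm3, Ccna2 and Cdc6 were tested only through the control arrays, the group where they are higher. The same holds for Rfc3 and Prim1 among the remaining lower ones. The counts and the median therefore rest in part on the detection rule. Uhrf1, which carries DNA methylation through replication, read 3.97, 3.67 and 4.04 against 5.06, 4.95 and 5.21. The 2 groups stood apart by more than their spread, and the difference was -1.18 (SE 0.21, unadjusted p = 0.00059, adjusted p = 0.254). Rrm2, the S phase subunit of ribonucleotide reductase, read 1.90, 1.76 and 1.57 against 2.61, 2.48 and 2.72, a difference of -0.86 (SE 0.21, adjusted p = 0.381). Ccna2, which encodes cyclin A, differed by -2.07 (SE 0.66), but it was well above background on 1 knockout array only, so that the size rests on values at background. Cdc6, a loader of the replicative helicase, differed by -0.72 (SE 0.27), with 2 knockout arrays well above background. Pcna, the sliding clamp, had a higher mean, by 0.40 (SE 0.25).

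Of the 21 histone chaperones listed, which carry histones to and from DNA, 16 were tested, 6 higher and 10 lower, with a median of -0.06. Atrx, a remodeller that places H3.3 in heterochromatin, was the 1 gene at an unadjusted p under 0.05, against 7.04% of all features. It read 0.62, 0.47 and 0.37 against 0.88, 1.43 and 1.17, a difference of -0.67 (SE 0.23, adjusted p = 0.564). Tonsl, a reader of new H4, differed by -0.52 (SE 0.25), Asf1b, the H3-H4 carrier of dividing cells, by -1.16 (SE 0.62), and Nap1l4, an H2A-H2B chaperone, by -0.27 (SE 0.22). Tonsl and Asf1b were each well above background on 2 of 3 knockout arrays.

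Of the 12 variant histones listed 9 were tested, 2 higher and 7 lower, with a median of -0.17 and none at an unadjusted p under 0.05. Cenpa, the H3 of centromeres, had the smallest p, at -0.22, -0.54 and -1.44 against -0.32, -0.23 and 0.94, a difference of -0.86 (SE 0.44, adjusted p = 0.806). H2afv differed by -0.43 (SE 0.26), H2afx, whose product marks DNA breaks, by -0.24 (SE 0.24), and H2afy2 by -0.27 (SE 0.31). H2afz read 4.98, 5.27 and 4.67 against 4.90, 5.23 and 4.69, a difference of 0.03 (SE 0.25), and H3f3b 5.58, 5.52 and 5.00 against 5.27, 5.20 and 5.11, a difference of 0.17 (SE 0.23). In both the knockout and control ranges overlapped, and the slide row block gave -0.27 and -0.19.

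**Figure D4:**
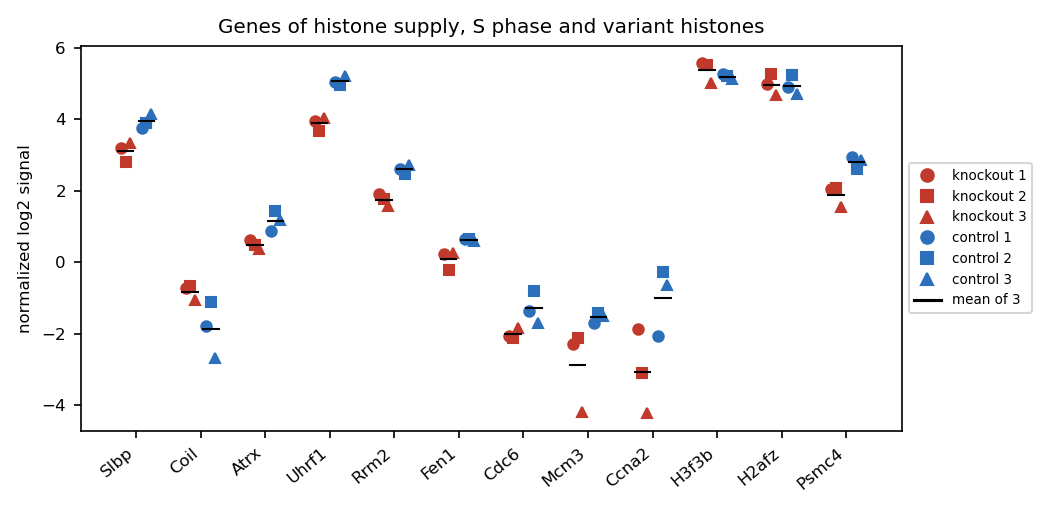
Normalized log2 signal (y axis) of 12 genes around histone supply on each array, each by its brightest probe; red symbols are knockout and blue symbols control arrays 1 to 3, and black bars the means of 3. Slbp, Atrx, Uhrf1, Rrm2, Fen1, Cdc6, Mcm3 and Psmc4 lie lower in all knockout arrays than in any control. Coil lies higher in all of them, while Ccna2, H3f3b and H2afz overlap. Of all features tested, 5.61% were lower without overlap and 5.08% higher, and several genes drawn were named for a small p. Cdc6, Mcm3 and Coil were tested only through the group where they are higher. The second Slbp probe, not drawn, differed by 0.17.

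The promoters of the histone types differ in the letters they hold, which the choice of members did not use. RefSeq promoters of build GRCm38.p6, from 250 bases before to 50 after the start, were matched by transcript for 42 of the 49 genes, Hist1h2be with 2, which gives 43 windows of 300 bases. Each motif was searched on both strands. CCAAT stood in all 35 windows of H1, H2A, H2B and H3 genes and in 2 of 8 of H4 genes, against 37.4% of 32851 promoters. TATAAA stood in 26 of the 43 (60.5%), against 13.6% of all. The H1 box AAACACA stood in 5 of 6 H1 windows, against 7.18% of all. The octamer ATTTGCAT stood in 6 of 10 H2B and 7 of 14 H2A windows and in 0 of 8 H4 windows, against 1.73% of all. These are counts of letters and show no binding. Windows of H2A and H2B genes that lie back to back overlap, so the same letters can be counted for both types.

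The 250 bases before the start are printed for 3 genes, each of which shows the letters of its type, with these motifs in capitals on either strand and the gene's own strand from 5′ to 3′. The H1 gene Hist1h1c, at chr13:23738557-23738806 (plus strand), has the H1 box and CCAAT. The H2B gene Hist1h2bm, at chr13:21721794-21722043 (plus strand), has CCAAT on both strands, the octamer close to the start, and also an H1 box. The H4 gene Hist1h4k, at chr13:21750554-21750803 (minus strand), has TATAAA and no CCAAT.
Hist1h1c: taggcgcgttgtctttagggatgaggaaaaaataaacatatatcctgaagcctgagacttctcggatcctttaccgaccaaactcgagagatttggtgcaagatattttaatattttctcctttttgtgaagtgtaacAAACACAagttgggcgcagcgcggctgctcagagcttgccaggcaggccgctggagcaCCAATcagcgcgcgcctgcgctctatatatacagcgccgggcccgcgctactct
Hist1h2bm: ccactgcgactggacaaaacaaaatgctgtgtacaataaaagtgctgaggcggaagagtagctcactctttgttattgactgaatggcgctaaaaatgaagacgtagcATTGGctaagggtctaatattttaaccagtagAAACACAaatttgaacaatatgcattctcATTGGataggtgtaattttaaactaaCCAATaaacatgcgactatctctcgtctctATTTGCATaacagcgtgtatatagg
Hist1h4k: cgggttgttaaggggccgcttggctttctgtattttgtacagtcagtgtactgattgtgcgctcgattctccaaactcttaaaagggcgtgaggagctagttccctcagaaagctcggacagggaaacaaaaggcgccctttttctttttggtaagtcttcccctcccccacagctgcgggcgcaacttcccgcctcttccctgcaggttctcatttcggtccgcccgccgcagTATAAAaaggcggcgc

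Histone genes of 2 types can share 1 promoter region, with their starts back to back. Among the matched windows, 3 such pairs of an H2A and an H2B gene were found: Hist1h2ae with Hist1h2bg, 180 bases between the starts, Hist1h2an with Hist1h2bp, 240 bases, and Hist1h2ba with Hist1h2aa, 281 bases. Both genes of the first pair were never above background. In the second pair Hist1h2an was tested, at a difference of -0.05 (SE 0.24), while Hist1h2bp was never above background. The third pair consists of testis histones, and both were tested, at -0.12 (SE 0.35) for Hist1h2aa and -0.28 (SE 0.24) for Hist1h2ba.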

How the data were processed

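Per the file headers, the deposited scanner files give linear intensity, which Agilent Feature Extraction 10.7.1.1 had background-subtracted and detrended (processed signal); version 9.5.1.1 stands in the submitters' processing notes. The authors' value matrix is linear intensity too, with equal quantiles in each column (median 17.7, upper quartile 83.8) as read from its values, and correlates at 0.997 to 1 with the scanner log2 values. Control spots and outlier-flagged spots were left out, spots of 1 probe were averaged, and 0 histone spots were flagged or saturated. Where a gene had several probes (5 histone genes), the brightest stood for it.

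All 6 arrays were fitted with lmFit and eBayes of limma 3.58.1 (R 4.3.3, and the data.table package, version 1.17.8), 2-sided, with Benjamini-Hochberg adjustment over 19199 features. The fit was tested on simulated data. The array number limits the precision: log2 differences had a median standard error of 0.27. Sequences were searched with Python 3.11.15. Transcripts of 47 of 49 genes had a current symbol in RefSeq (GRCm38.p6); probe coordinates are those of the array annotation (mm9).

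One listed marker is not reported here. The members and lists were chosen with earlier results of these data known. Named are histone genes with an unadjusted p under 0.05, the 2 smallest p, extremes and 2 brightest genes of each type, all Hist3, Hist4 and never-detected genes, up to 4 genes of smallest p of each list, and Psmc4, Slbp, Npat, H2afz and H3f3b; others (such as Pcna, Lsm10 and the second probes) were chosen after their values were seen. Lists whose medians are not given above had these: macrophage 0.13 (6 tested), endothelial 0.40 (6), fibro-adipogenic -0.35 (6), myofibre -0.08 (3), satellite cell 0.03 (10). The p-values measure the spread between mice of 1 hybridization each. Alternatives covered background correction, scaling, filters, probe choice, moderation, array weights, blocks and each array left out.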

Additional observations from a re-analysis of the deposited data

How the results depend on the processing

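Over all features the count at an adjusted p under 0.05 (0 in the main setting) was 1 with quantile normalization, 2 with median scaling, 1 from the deposited values, 1 with an intensity trend and robust moderation, and 934 with array weights. The weights gave knockout 2 a weight of 9.46 against 0.18 to 1.21 for the others, so that fit rests on knockout 2. It called 1 histone gene, Hist1h4k at 1.58 (limma adjusted p = 0.0279), and also called Slbp at -1.12 (0.0235), Uhrf1 at -1.39 (0.0117) and Rrm2 at -0.84 (0.0248). The count at an unadjusted p under 0.05 (1352) was 5023 with array weights, 3148 under the slide row block, 2864 within slide row 2, and 1138 to 1816 with an array left out. Both slide row fits set knockout 3 alone against the controls and assume that it varies like the others, so they are not replicated. For histone genes this count (2) was 1 with normexp, 1 with the filter on all 6 arrays, 1 with the intensity trend, 4 without a filter, 4 within slide row 2, 6 with array weights, and 1 to 2 with an array left out. It was 1 without each of knockout 1, 2 and 3 and of control 1 and 3, and 2 without control 2. The adjusted count stayed at 0 to 0 with an array left out.

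Medians that moved by more than the replicate spread were H2B without a filter at 0.16, H3 and H4 with array weights at 0.19 and 1.14, and H2A at -0.40 both within slide row 2 and under the slide row block. With an array left out, the medians ranged from -0.04 to 0.11 for H1, -0.16 to 0.16 for H2A, -0.41 to -0.12 for H2B, -0.12 to 0.03 for H3 and 0.13 to 0.67 for H4. The second in place of the brightest Hist1h4i probe, chosen after seeing the data, left the H4 median at 0.49. The cause of these changes was not tested beyond the weights. Same-numbered arrays did not deviate together (correlations of 0.07, -0.02 and 0.09), and the replicate block gave 1 histone gene at an unadjusted p under 0.05. Hist1h4h was not tested under the filter on all 6 arrays. Signal over background limits the 21 histone genes that were not tested.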
